A study of Homo sapiens and Mus musculus with 19 samples.

Results

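The 10 apolipoprotein genes APOA1, APOC3, APOA4, APOA5, APOB, APOH, APOE, APOC1, APOA2 and APOM were examined at the CCGG sites from 5 kb before each gene's GRCh38 span to 5 kb past it. Because APOA1, APOC3, APOA4 and APOA5 lie side by side on chromosome 11, and APOE and APOC1 on chromosome 19, the members formed 6 units, which held 312 of the 2317745 CCGG sites in the human tables. The assay tags the DNA of a CCGG site as unmethylated, 5-methylated (5mC) or 5-hydroxymethylated (5hmC), and the measure used throughout is the share of a region's tags that are of 1 kind. H1ES, a human embryonic stem cell line, and HepG2, a liver tumour line labelled as hepatocellular carcinoma, each had 2 libraries of 1000 cells and 5 libraries of 1 cell each. No treatment or genotype is named for either line, so every comparison is between 2 cell lines, each a single line, and not between tissues. The labels do not say that libraries came from separate cultures, so p-values measure the spread between these libraries only, which may be technical.

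Apolipoproteins are the proteins that wrap lipids into particles for transport in blood. Most are made by hepatocytes, which secrete APOB as the scaffold of very-low-density lipoprotein and APOA1 as the main protein of high-density lipoprotein. The others steer a particle's fate by activating or restraining lipoprotein lipase, by binding receptors, or by carrying small lipids and phospholipids. CpG methylation near a start is generally associated with a silent gene in CpG-rich promoters. Several apolipoprotein promoters are CpG-poor, and there the link between methylation and expression is looser.

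Promoter sequence was found in the RefSeq table (GRCh38.p14) for 7 of the 10 members. The 250 bases before the start are printed for 3 genes whose start windows differed between the lines, since they show how few measurable sites such a promoter holds. CCGG and GTTAAT, which is 1 arm of the sequence bound by the liver factor HNF1, were searched on both strands and are in capitals (on the printed strand the latter can read ATTAAC). No match overlapped another. APOH lies at chr17:66229416-66229665 on the minus strand, APOA5 at chr11:116792421-116792670 on the minus strand and APOM at chr6:31655644-31655893 on the plus strand.
APOH: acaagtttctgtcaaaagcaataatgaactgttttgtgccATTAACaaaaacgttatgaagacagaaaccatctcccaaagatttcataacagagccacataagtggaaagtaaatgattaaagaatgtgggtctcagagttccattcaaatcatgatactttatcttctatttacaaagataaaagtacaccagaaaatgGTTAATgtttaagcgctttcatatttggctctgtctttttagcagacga
APOA5: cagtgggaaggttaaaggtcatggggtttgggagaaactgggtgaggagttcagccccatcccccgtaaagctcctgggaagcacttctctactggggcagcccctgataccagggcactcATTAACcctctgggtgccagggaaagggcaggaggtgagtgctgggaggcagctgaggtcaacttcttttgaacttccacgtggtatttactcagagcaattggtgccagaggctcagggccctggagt
APOM: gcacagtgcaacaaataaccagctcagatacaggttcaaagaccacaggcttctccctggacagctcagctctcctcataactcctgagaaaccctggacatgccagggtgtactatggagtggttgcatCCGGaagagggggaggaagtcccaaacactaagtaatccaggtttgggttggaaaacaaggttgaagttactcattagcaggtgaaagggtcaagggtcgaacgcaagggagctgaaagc
CCGG was found in the 250 bases of 2 of the 7 members (APOM and APOC1), against 71.0% of 15100 promoters of the same length. GTTAAT was found in 2 of the 7 (APOH and APOA5) and in 4.91% of the 15100. TATAAA, also searched on both strands, was found in 0 of the 7 and in 9.42% of the 15100. The APOH and APOA5 stretches hold no CCGG, so the values below for these starts come from sites on either side of the printed bases.

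Over all autosomal sites, 4.49% ± 0.35 of tags were unmethylated in H1ES and 38.6% ± 0.80 in HepG2 (mean ± SD, n = 2 libraries of 1000 cells each). Counted over all chromosomes, these libraries held 4911898 to 6644517 tags each and the single cells 526207 to 2455908. The lines could be told by their markers at the start windows, which reach 1 kb to both sides of a start. Of the 6 hepatocyte markers, HNF4A, SERPINA1 and F2 had tags, and all 3 were more unmethylated in HepG2. Over all start windows tested, 30.1% were called higher in HepG2 and 5.28% lower. SERPINA1 read 42.9% and 33.3% in the HepG2 libraries, near the library-wide 38.6%. HNF4A, a master regulator of liver genes, read 0% and 3.45% in the H1ES libraries against 90.7% and 95.2%. ALB and AFP had no tag there, and TTR, POU5F1 and LIN28A had no placed start. All 4 pluripotency markers with a placed start were less unmethylated in HepG2, for example ZFP42 with 88.9% and 77.1% in H1ES against 5.88% and 26.7%.

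Pooled over the 6 units, 6.64% and 8.27% of tags were unmethylated in the H1ES libraries and 30.2% and 28.7% in the HepG2 libraries, from 641 to 906 tags each. HepG2 was higher by 22.0 percentage points, with a pooled SD of 1.12 (exact permutation test, two-sided, p = 0.3333, the smallest that 2 against 2 allow). These pooled shares stood above the library-wide 4.49% in H1ES and below the library-wide 38.6% in HepG2. Gene windows are the nearer comparison. The median of 17419 other windows was 6.04% in H1ES and 25.7% in HepG2, and the pooled shares stood above it in both lines. By unit, APOH (0.98%) and the APOE and APOC1 cluster (2.64%) were below 4.49% in H1ES, and APOH (40.2%), APOA2 (80.4%) and APOM (41.0%) were above 38.6% in HepG2.

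All 6 units were called more unmethylated in HepG2 (edgeR quasi-likelihood test, Benjamini-Hochberg over 17425 gene windows, threshold 0.05), and so were 69.8% of all windows tested, so the count of 6 does not set the members apart. Sizes differed widely between units. The fit was also made relative to each library, that is to its odds summed over the windows tested and not over all sites. This moved the median of all windows from 1.84 to -0.68 on the log2 scale. On that scale 2 of the 6 units (APOH and APOA2) were called higher in HepG2, against 29.2% of all windows. APOB alone of the 6 was called lower on that scale, against 44.8% of all windows.

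**Figure D1:**
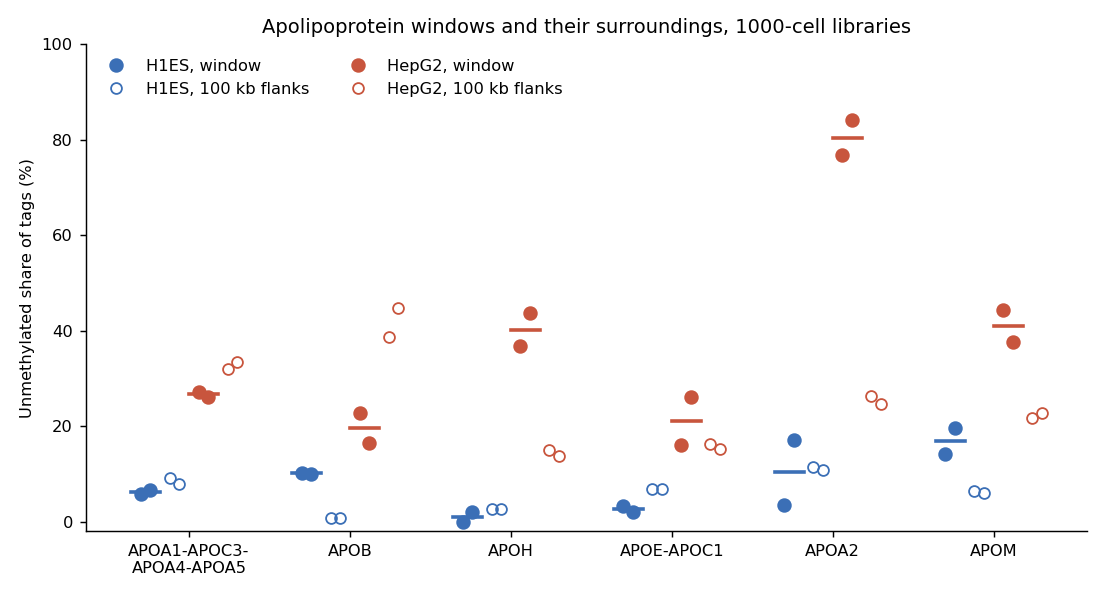
Unmethylated share of tags (%) in each apolipoprotein window (filled points, with the mean as a line) and in the 100 kb on both sides of it (open points), for the 2 H1ES and 2 HepG2 libraries of 1000 cells. The HepG2 points lie above the H1ES points in all 6 windows, APOA2 reaches 76.7% and 84.0%, and APOB lies below its HepG2 surroundings.

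APOB, on chromosome 2, encodes the large scaffold protein of very-low- and low-density lipoprotein. Its window (2:20996429-21049073, 55 sites) was unmethylated in 10.3% and 10.1% of H1ES tags and in 22.7% and 16.4% of HepG2 tags. The groups did not overlap, and the log2 odds were 1.12 ± 0.32 (SE; adjusted p = 0.000799, edgeR). Without HepG2 replicate 1 the call was lost (0.79, adjusted p = 0.0812), and relative to each library the direction turned (-1.42, adjusted p = 0.000102). The 100 kb on both sides behaved differently, at 0.806% of pooled tags in H1ES and 41.6% in HepG2.

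The APOB start was the 1 member start that was open in both lines. Within 1 kb of it, 15 of 16 and 10 of 11 tags were unmethylated in the H1ES libraries and 19 of 21 and 13 of 14 in HepG2, and the lines did not differ detectably (log2 odds -0.17 ± 1.23, adjusted p = 0.9501, edgeR). A site 84 bp upstream of the start gave 7 of 7 and 6 of 7 tags in H1ES and 10 of 10 and 5 of 6 in HepG2. Further into the gene the lines parted. Between 1 and 5 kb past the start, 0 of 21 pooled H1ES tags were unmethylated (which allows up to 14.3%), against 28 of 40 (70.0%) in HepG2. Over the remaining gene, 32 sites long, both lines were methylated again, with 5 of 205 tags (2.44%) unmethylated in H1ES and 5 of 314 (1.59%) in HepG2. The cut at 5 kb was set for this gene alone and is no independent bound. Over the whole gene past its first 1 kb, 5 of 226 H1ES tags (2.21%) and 33 of 354 HepG2 tags (9.32%) were unmethylated. Past the end of the gene, 2 of the 3 sites opened in HepG2, so that 0 of 34 H1ES tags and 19 of 40 HepG2 tags were unmethylated there.

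The chromosome 11 cluster (11:116784367-116842622, 97 sites) holds APOA5, APOA4, APOC3 and APOA1 in that order along the chromosome. The unmethylated share was 5.74% and 6.58% in H1ES and 27.3% and 26.1% in HepG2, a difference of 2.47 ± 0.28 in log2 odds (adjusted p = 5.49e-18, edgeR). Relative to each library this came to -0.070 ± 0.31 (adjusted p = 0.843, edgeR). The cluster was not uniform inside.

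APOA1, the main protein of high-density lipoprotein, had few tags. The site 85 bp inside the gene was unmethylated in 0 of 9 and 0 of 5 H1ES tags and in 4 of 4 and 3 of 3 HepG2 tags, which leaves no overlap between the lines. The site 1840 bp past the start was unmethylated in 4 of 4 pooled H1ES tags and 3 of 4 HepG2 tags, so it did not separate them. Over the whole gene this gave 4 of 19 and 10 of 11 tags in the libraries of 1000 cells, and 6 of 12 and 5 of 8 in the single cells. Upstream of the gene, 0 of 19 H1ES tags and 0 of 20 HepG2 tags were unmethylated, which allows up to 15.8% in H1ES.

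APOC3 restrains lipoprotein lipase and the uptake of triglyceride-rich particles. Its start window read 0% in both H1ES libraries (0 of 36 pooled tags, up to 8.33%) and 38.9% and 36.8% in HepG2 (adjusted p = 0.000288, edgeR). Over its whole gene span, 0 of 68 H1ES tags and 28 of 65 HepG2 tags (43.1%) were unmethylated. The stretch between APOA4 and APOC3, which leads up to the APOC3 start, gave 0 of 80 against 27 of 56 (48.2%). In the stretch between APOC3 and APOA1, only 1 of 31 HepG2 tags was unmethylated, and 0 of 36 in H1ES. In HepG2 the share thus fell from 43.1% in the APOC3 span to 3.23% in the stretch next to it, while H1ES read 0% in all 3 stretches.

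APOA4, a protein of intestinal lipid particles that the liver makes little of in humans, stayed largely methylated. Its gene span gave 0 of 33 tags in H1ES (up to 9.09%) and 4 of 40 in HepG2. The start window held too few tags for the main test. At a minimum of 5 tags it was not called (log2 odds 2.68 ± 2.20, adjusted p = 0.416, edgeR). Between APOA5 and APOA4, the longest gap of the cluster, with 28 sites, 5 of 219 (2.28%) and 32 of 226 tags (14.2%) were unmethylated.

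APOA5 promotes the action of lipoprotein lipase. Its start window read 41.7% and 33.3% in H1ES and 91.7% and 100% in HepG2 (log2 odds 4.93 ± 1.25, adjusted p = 0.000481, edgeR). The window joins 2 unlike sites. The site 342 bp upstream was unmethylated in 1 of 7 and 1 of 13 tags in H1ES and in 6 of 7 and 8 of 8 in HepG2. The site 976 bp inside the gene was open in both lines, at 4 of 5 and 5 of 5 tags against 5 of 5 and 3 of 3. Of these 2 sites, the upstream one separated the lines.

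The chromosome 19 cluster (19:44900796-44924346, 75 sites) holds APOE, the receptor ligand of remnant particles, and APOC1, which inhibits lipid transfer and receptor uptake. Its share was 3.31% and 1.96% in H1ES and 16.1% and 26.2% in HepG2 (log2 odds 3.19 ± 0.50, adjusted p = 5.90e-10, edgeR). Relative to each library it was not called (0.69, adjusted p = 0.279). The APOE gene span was methylated in both lines, with 1 of 70 H1ES tags and 0 of 57 HepG2 tags (up to 5.26%) unmethylated. Upstream of APOE, 3 of 31 and 1 of 15 tags were unmethylated in H1ES and 7 of 23 and 17 of 24 in HepG2. Most of these came from a site 619 bp upstream of the start, with 3 of 10 and 1 of 5 tags in H1ES and 4 of 4 and 10 of 10 in HepG2. Between APOE and APOC1 the pooled counts were 1 of 48 and 15 of 40 (37.5%), and in the APOC1 span 1 of 28 and 3 of 27. The APOE and APOC1 start windows held 16 and 14, and 5 and 5, pooled tags in the 2 lines and were not tested.

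At 19:44911853, 2819 bp upstream of the APOC1 start and between the genes, the only single site of the 312 with at least 10 tags in all 4 libraries gave 0 of 19 and 0 of 12 tags in H1ES and 3 of 14 and 4 of 14 in HepG2. It was not called (log2 odds 5.47 ± 1.45, adjusted p = 0.0530, edgeR), while 36.8% of the 7212 sites tested were called higher. All other single sites given here were chosen after their values were seen and had too few tags for this test. At a minimum of 5 tags, 0 of 170769 sites were called. Among those tested were the sites 183 bp inside APOH (log2 odds 10.1), 342 bp upstream of APOA5 (6.53) and 84 bp upstream of APOB (0.195).

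APOH, or beta-2-glycoprotein I, is a phospholipid-binding plasma protein made by the liver, at 17:66207033-66234415 with its 5 kb surroundings (21 sites). Its window read 0% and 1.96% in H1ES and 36.8% and 43.7% in HepG2 (log2 odds 6.14 ± 0.73, adjusted p = 8.76e-17, edgeR; relative to each library 3.87, adjusted p = 0.000115). The difference lay in 1 short stretch, whose cut at 2000 bp was set for this gene alone and is no independent bound. From 1 kb before the start to 2000 bp into the gene, 0 of 25 and 0 of 23 H1ES tags and 32 of 36 and 31 of 39 HepG2 tags were unmethylated. All 5 sites of this stretch were mostly unmethylated in pooled HepG2 tags. In the rest of the gene, with 12 sites, 1 of 73 H1ES tags and 0 of 69 HepG2 tags (up to 4.35%) were unmethylated, and upstream 0 of 13 and 0 of 14. With the cut at 1 kb, as for every start window, 1 of 90 H1ES tags and 12 of 87 HepG2 tags (13.8%) in the remaining gene were unmethylated. The site nearest to the start, 183 bp inside the gene, gave 0 of 8 and 0 of 7 tags in H1ES and 8 of 8 and 14 of 15 in HepG2. On the other side of the printed promoter, 257 bp upstream, the counts were 0 of 3 and 0 of 1 against 3 of 3 and 4 of 4.

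APOA2, the second protein of high-density lipoprotein, lies at 1:161217292-161228628 with its surroundings (17 sites). It had the highest HepG2 share of the 6 units, with 76.7% and 84.0%, against 3.57% and 17.1% in H1ES (log2 odds 5.26 ± 0.62, adjusted p = 5.02e-17, edgeR; relative to each library 2.74, adjusted p = 7.27e-05). Its mean HepG2 share exceeded that of 98.8% of the other windows tested. For the remaining units this rank was lower, from 40.5% for APOB to 68.4% for APOM. The gene span itself holds no CCGG site. Most open HepG2 tags (47 of 54) lay past its end, on the side of FCER1G, where 0 of 40 and 1 of 27 tags were unmethylated in H1ES and 27 of 33 and 20 of 22 in HepG2. Of these sites 2 lie inside FCER1G and the others between the 2 genes, so the open tags cannot be assigned to 1 of them. Upstream, on the side of TOMM40L, 7 of 24 H1ES tags and 7 of 13 HepG2 tags were unmethylated, which makes 7 of the 8 open H1ES tags of the window. The 100 kb around the window were at 11.2% and 25.5% of pooled tags in the 2 lines.

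APOM carries sphingosine-1-phosphate on high-density lipoprotein. Its window (6:31647404-31663210, 47 sites) read 14.2% and 19.7% in H1ES and 44.4% and 37.6% in HepG2 (log2 odds 1.83 ± 0.34, adjusted p = 2.26e-07, edgeR). Relative to each library the sign turned (-0.70, adjusted p = 0.0711). The listed start lies well inside the RefSeq span. Its start window read 0% in both H1ES libraries (0 of 25 pooled tags) and 9 of 18 and 3 of 14 tags were unmethylated in HepG2 (adjusted p = 0.00313, edgeR). The site 353 bp upstream was unmethylated in 0 of 3 and 0 of 6 H1ES tags and in 8 of 8 and 3 of 3 HepG2 tags. From the listed start to the end of the gene, 0 of 26 H1ES and 0 of 41 HepG2 tags were unmethylated. In the part of the span before the listed start, which includes that site, the counts were 4 of 26 (15.4%) and 34 of 46 (73.9%). Single cells gave 3 of 12 tags in H1ES and 19 of 33 in HepG2 in that part. The window reaches the neighbours BAG6 and C6orf47, and 3 of its sites with at least 5 tags per line were open in both lines, all outside APOM.

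**Figure D2:**
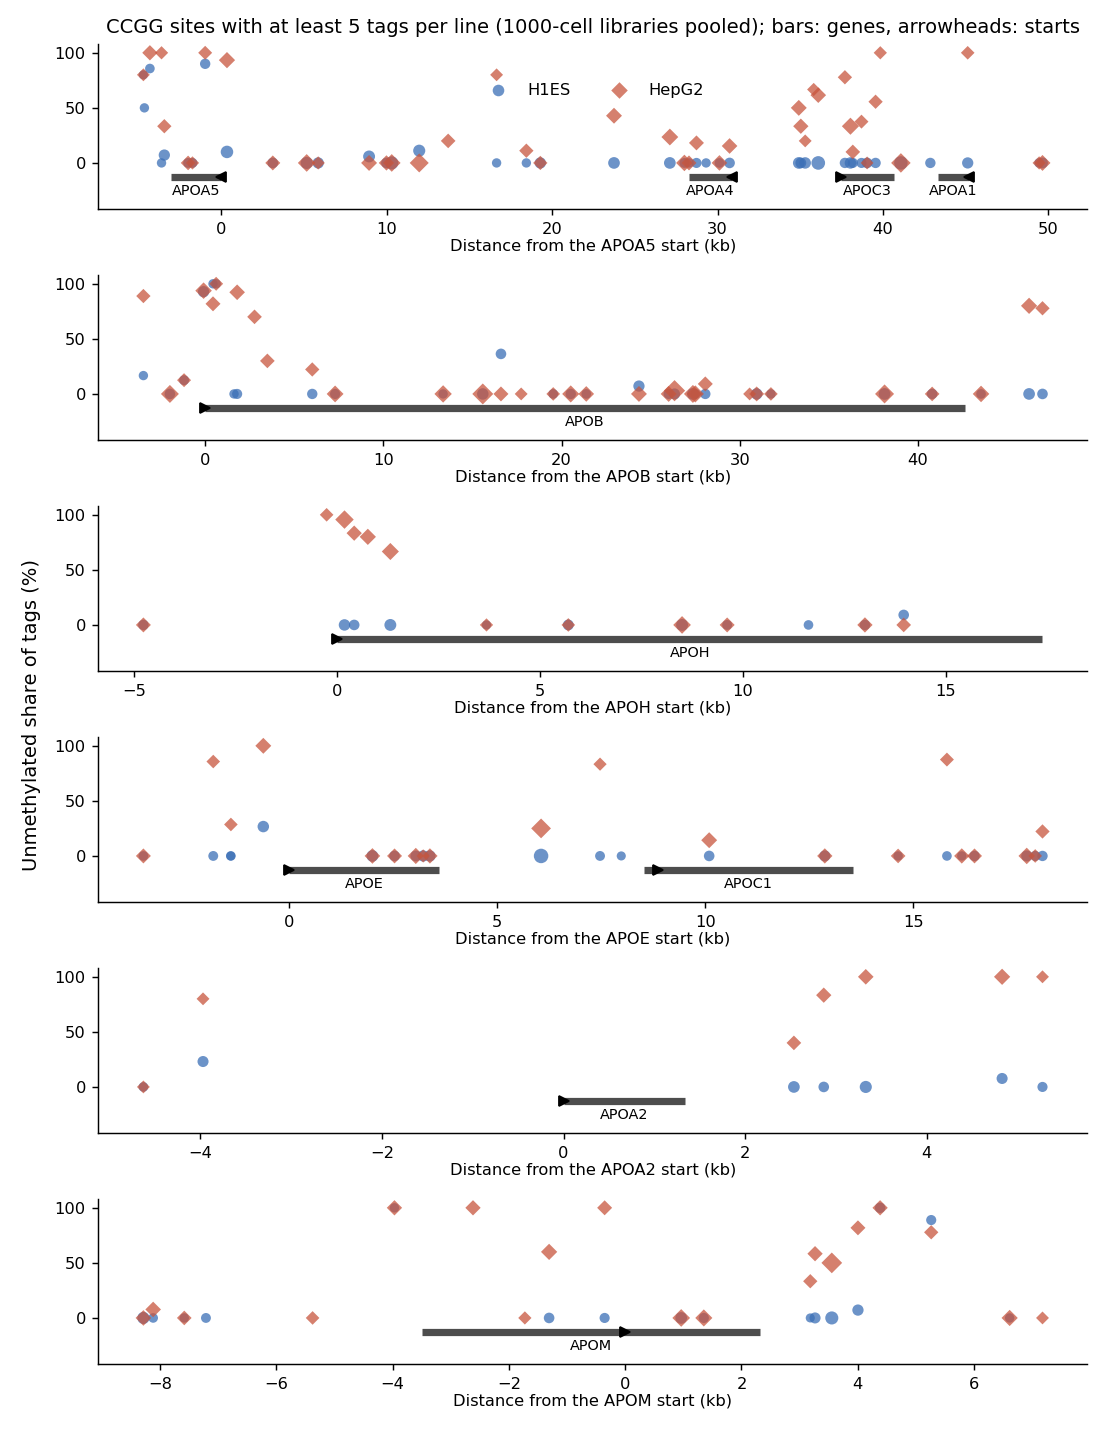
Unmethylated share of tags (%) at each CCGG site with at least 5 pooled tags in a line (circles H1ES, diamonds HepG2, larger for more tags) against the distance in kb from 1 start per unit; for the clusters the axis follows the chromosome. HepG2 points reach 100% in a short stretch round the APOH start, near 0% in the rest of that gene, and both lines are high only at the APOB start among the APOB sites.

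Of the 10 members' start windows, 5 had at least 10 tags in all 4 libraries: APOB, APOM, APOA5, APOC3 and APOH. All but APOB were called more unmethylated in HepG2, while 30.1% of the 3751 start windows tested were called higher and 5.28% lower. Relative to each library, here to its odds summed over the start windows tested, the same 4 were called higher, against 19.6% of all. The H1ES libraries read 0% at APOH, APOC3 and APOM, so the fitted log2 odds there (9.99, 6.46 and 5.91) depend on the fit's prior count and are no bound. None of the 4 calls held without H1ES replicate 1 or without H1ES replicate 2 (adjusted p 0.0556 to 0.190), where 0 start windows of the genome were called by edgeR (1154 and 1410 at an unadjusted p under 0.05). The log2 odds themselves were 5.13 and 4.64 for APOA5 without these libraries, 10.04 and 9.98 for APOH, 6.57 and 6.39 for APOC3, and 5.79 and 6.03 for APOM. Without HepG2 replicate 1 or without HepG2 replicate 2, APOH alone of the 5 was called.

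Of the 312 sites, 119 had at least 5 pooled tags in both lines. Of these, 25 (21.01%) were under 20% unmethylated in H1ES and over 50% in HepG2, 9 (7.56%) were over 50% in both, 67 (56.3%) were under 20% in both, and 0 were open in H1ES alone. Over 800397 autosomal sites with the same depth, these shares were 35.2%, 3.29%, 44.5% and 0.516%. Within 1 kb of a member's start, 6 of 16 sites (37.5%) opened in HepG2 alone, near the 35.2% of all autosomal sites. There 4 were open in both lines and 4 closed in both. Further away 19 of 103 (18.4%) opened in HepG2 alone and 63 were closed in both. These classes were not split by distance for other genes.

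By distance, the members' tags within 500 bp of a start were 18.6% ± 0.61 unmethylated in H1ES and 83.9% ± 5.46 in HepG2 (mean ± SD, n = 2). Between 500 bp and 1 kb the values were 22.6% ± 0.74 and 47.2% ± 3.93. They were 3.36% ± 1.90 and 38.1% ± 0.66 between 1 and 2 kb, and 8.92% ± 1.39 and 38.3% ± 3.06 between 2 and 5 kb. Other protein-coding genes within 500 bp were at 66.1% ± 1.06 in H1ES and 74.6% ± 0.64 in HepG2. Many of those starts are crowded with CCGG, so the other genes with at most 5 sites within 1 kb of the start, a limit chosen after the members' values were seen, were set beside them. These read 28.6% ± 0.75 and 60.8% ± 0.85 within 500 bp, and 5.86% ± 0.40 and 39.1% ± 0.88 between 2 and 5 kb. Within 500 bp the members lay below these genes in H1ES and above them in HepG2, and between 500 bp and 1 kb above them in H1ES. APOB held 25 of the 41 unmethylated H1ES tags within 1 kb of a start. With APOB left out, the H1ES share within 1 kb went from 20.2% ± 0.03 to 9.21% ± 1.48, and the HepG2 share went from 66.8% ± 3.19 to 62.4% ± 4.55. The difference between the sets was not tested.

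**Figure D3:**
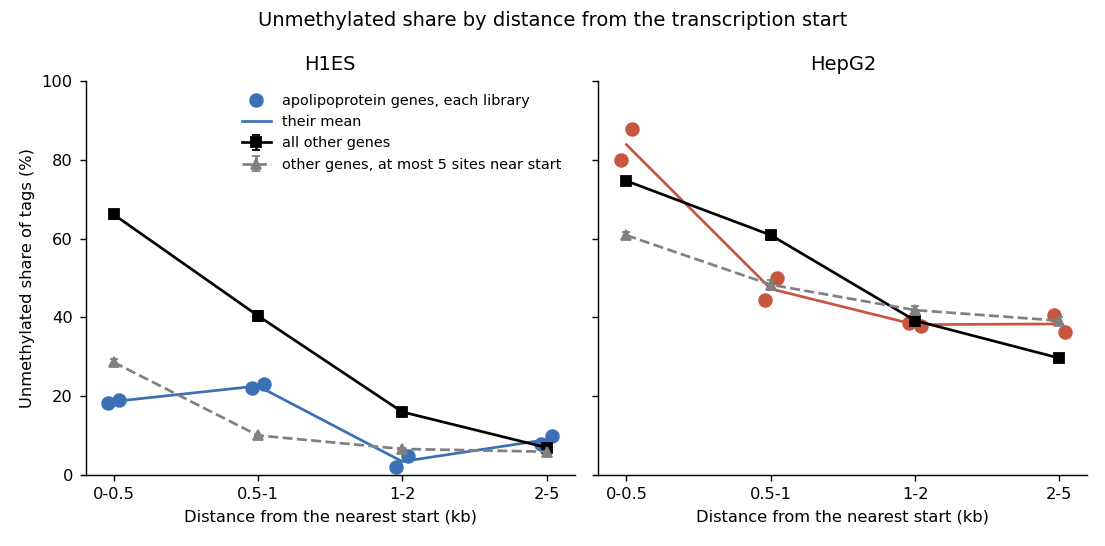
Unmethylated share of tags (%) by distance from the nearest start (kb), for the members (coloured points for each library, line for the mean), for all other protein-coding genes (squares) and for other genes with at most 5 CCGG sites within 1 kb of the start (triangles), with bars for the SD of 2 libraries. In HepG2 the members fall from 83.9% within 500 bp to 38.3% at 2 to 5 kb, and in H1ES they stay at or below 22.6%.

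Single cells gave the same order. The pooled share over the 6 units ranged from 5.22% to 10.9% over the 5 H1ES cells (median 9.09%) and from 22.8% to 33.3% over the 5 HepG2 cells (median 31.2%), from 79 to 354 tags per cell. Every HepG2 cell was above every H1ES cell. This was so over all autosomal sites too, with 4.12% to 4.91% in H1ES cells and 36.2% to 40.4% in HepG2 cells, so it does not set the members apart. Within 1 kb of a start, H1ES cells ranged from 9.38% to 27.8% and HepG2 cells from 53.8% to 81.8%. These rest on 11 to 51 tags per cell, and the lowest HepG2 cell, with 7 of 13 tags, has an exact 95% interval of 25.1% to 80.8%, which overlaps those of 4 of the 5 H1ES cells. Away from the starts the ranges were 4.55% to 9.64% and 18.8% to 27.1%. Each library is 1 cell, so no test was made between cells, and intervals cover counting error only.

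At the APOH start stretch, 0 of 27 tags of the 5 H1ES cells together were unmethylated (up to 11.1%), and in the HepG2 cells 1 of 2, 4 of 4, 14 of 17, 1 of 3 and 11 of 13. In the rest of the APOH gene 0 of 43 tags of the HepG2 cells were unmethylated. Past the end of APOA2, the HepG2 cells gave 2 of 2, 3 of 3, 15 of 16, 2 of 3 and 8 of 13, and the H1ES cells 0 of 33 together. APOB beyond its first 5 kb was unmethylated in 1 of 179 tags of HepG2 cells and 1 of 113 of H1ES cells. Other stretches differed from the libraries of 1000 cells. On the BAG6 side of APOM, 1 of 44 tags of HepG2 cells was unmethylated, against 13 of 60 in the HepG2 libraries. Past the end of APOM, 4 of 52 tags of H1ES cells were unmethylated against 20 of 85, and past the end of APOA5, 15 of 23 against 15 of 39.

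**Figure D4:**
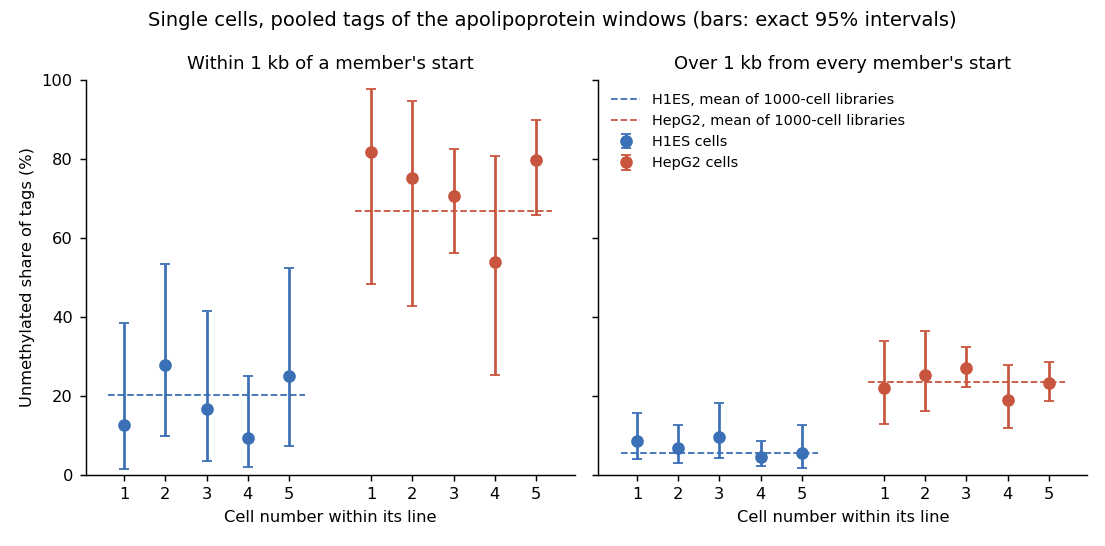
Unmethylated share of tags (%) in each single cell within 1 kb of a member's start (left) and over 1 kb from every start (right), with exact 95% intervals as bars and the means of the 1000-cell libraries as dashed lines. HepG2 cells lie between 53.8% and 81.8% near the starts and between 18.8% and 27.1% away from them, and H1ES cells are lower in both panels.

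5hmC, an oxidised form of 5mC, was rare at the members. It made up 15 of 874 and 17 of 641 tags in the H1ES libraries and 8 of 906 and 4 of 801 in HepG2, or 2.18% ± 0.66 against 0.69% ± 0.27 (mean ± SD, n = 2), where the library-wide means were 1.61% and 0.249%. No unit was called (adjusted p 0.0776 to 1.0, edgeR), while 15.8% of all windows were called lower in HepG2. At an unadjusted p under 0.05, 1 unit passed with edgeR and with DESeq2, the chromosome 11 cluster, with 4 of 296 and 9 of 243 tags against 1 of 264 and 1 of 245. Of all 17425 windows, 5103 passed this threshold with edgeR and 4403 with DESeq2, so the 1 unit does not set the members apart. The cluster's log2 odds were -2.51 with edgeR, and -3.12 to -1.68 when 1 library was left out. DESeq2 called 0 units after adjustment and gave 4 of them no adjusted p. At this depth, differences in 5hmC at single members were not detectable.

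Among 38 further genes of lipoprotein metabolism, 37 had windows with enough tags. Of these, 32 were called more unmethylated in HepG2 and 0 less, where 69.8% of all windows were called higher, with a median of 2.61 log2 odds against 1.84 over all windows. Relative to each library, 13 were higher and 14 lower, against 29.2% and 44.8% of all windows, with a median of 0.10 against -0.68. The 4 called with the smallest p were ABCG1, a cholesterol exporter (3.93% ± 0.40 in H1ES, 52.5% ± 0.53 in HepG2), LMF1, a lipase maturation factor (2.31% ± 0.07, 23.5% ± 2.39), GPIHBP1, the anchor of lipoprotein lipase on capillaries (0.82% ± 0.27, 67.9% ± 3.13), and LPL, the lipase itself (8.16% ± 1.44, 76.3% ± 3.48; mean ± SD, n = 2). All 4 kept their direction relative to each library. VLDLR, APOF, SOAT2 and SAR1B were among those not called. Of 9 start windows of the list that could be tested, 6 were called higher, among them LIPC, the hepatic lipase, with 0% in both H1ES libraries and 100% in both HepG2 libraries. Over all start windows 30.1% were called higher. On the scale relative to each library's start windows, 5 of the 9 were higher, against 19.6% of all, and 1 was lower, PLTP, a phospholipid transfer protein (-2.38, adjusted p = 0.00371, edgeR).

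The windows whose 14 shares lay nearest to the pooled members' shares were those of RSPH9, LPIN1, GSE1, TBC1D30 and OSBPL9, with mean absolute differences of 1.84 to 2.52 percentage points over the 14 libraries, against a median of 11.8 over 9076 windows. The 14 libraries come from 2 lines, so this likeness covers little more than their levels in each line.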

How the data were processed

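DARESOME tags at CCGG sites were used from 4 libraries of 1000 cells and 10 single cells of H1ES and HepG2; 5 mouse libraries were not used here. The deposited tables have no header. They give, per site, the deposited fraction values of 3 kinds of tag and the deposited count of tags. The 3 fractions were taken, in the order given, as unmethylated, 5mC and 5hmC. The fraction taken as unmethylated was higher at crowded than at isolated CCGG sites, with 61.6% against 1.66% in H1ES and 63.5% against 42.8% in HepG2. The fraction taken as 5mC was the larger of the other 2, and every 5hmC value rests on this choice. Fraction times count was whole within 0.00141, so tags of each kind were recovered. UMI-tools 0.5.4, cutadapt 1.5, Bowtie2 2.3.4.1 and hg38 are named in the submitters' processing notes, without roles. All 39433 CCGG of 15100 RefSeq promoters were found as sites of the files, so GRCh38 coordinates were used.

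Tags of a mark were tested against all others with edgeR 4.0.16 in R 4.3.3 (1 term per library, quasi-likelihood, Benjamini-Hochberg over all features, autosomes only). A gene window needed 20 tags in every library, and a start window or a site 10. SE is the log2 odds over the root of F. The start is the most upstream one listed among the RefSeq promoters, which for APOM and APOC1 lies inside the RefSeq span. For APOA1, APOB and APOC3, it is the end of the RefSeq span given by the gene's known strand. Exact tests and Clopper-Pearson intervals used SciPy 1.17.1. Beside a count of 0, the upper limit printed is 3 tags over the total. The tests were run on simulated data first.

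Members and gene lists were chosen with earlier results of these data known. The rule for names takes all members and units, tested sites nearest to each start, up to 4 of the lipoprotein list per direction by smallest p, and the 5 windows with the most like shares. Replicates were not duplicates: the chi-square per window between the 2 libraries of a line averaged 1.04 in H1ES and 1.08 in HepG2, near the sampling noise, while 13.4% and 10.7% of their shared sites held identical tags. Alternatives covered the tag minimum, DESeq2 1.42.0, odds relative to each library, 5mC tags as reference, a replicate block, other flanks, and leaving out each library. Odds relative to each library take as baseline its tags of each kind summed over the features of the same test.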

Additional observations from a re-analysis of the deposited data

Results flagged for a closer look

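Shares in the 5 cells of a line were searched for a cell far from the others, in 22 groups of values, of which chance alone would flag about 1 in 20. In 3 of them a cell stood apart. The pooled apolipoprotein share of HepG2 cell 4 was 22.8%, while the other 4 HepG2 cells lay between 30.4% and 33.3%. That cell gave 26 unmethylated of 114 tags, with an exact 95% interval of 15.5% to 31.6%. In the APOB window, H1ES cell 5 was unmethylated in 12.5% of tags (3 of 24), against 2.13% to 4.55% in the other 4 H1ES cells. Over all autosomes, HepG2 cell 3 was unmethylated in 40.4% of tags, against 36.2% to 37.2% in the other 4, and it is the most deeply sequenced of the HepG2 cells with 2455908 tags.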

How the results depend on the processing

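Relative to each library, 2 units were called higher in place of 6, and 5092 of all windows in place of 12164. The chromosome 11 cluster (-0.070), APOB (-1.42) and APOM (-0.70) changed sign there, and the lipoprotein list gave 13 higher and 14 lower in place of 32 and 0. The baseline is set anew for each kind of feature and mark. With it 737 start windows (in place of 1129), 523 single sites (in place of 2653) and 7 windows with lower 5hmC (in place of 2751) were called. Tested by itself, each of the 10 genes was called higher, and so were 12168 of the 17429 windows of that fit. The windows of neighbouring members such as APOC3 and APOA1, or APOE and APOC1, overlap, so these are not separate results. With a replicate block the 6 unit calls and 4 start calls stood, and 1221 windows were called lower in 5hmC. The numbers pair nothing known: deviations of same-numbered libraries correlated at 0.026 over 9036 windows.

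A minimum of 20 tags left 0 members' start windows to test and 216 called in all, a minimum of 5 tags gave 1927, and starts of 500 bp on both sides gave 1 member (APOH) and 215 in all. Single sites at a minimum of 5 tags gave 0 calls of 170769 (71048 at an unadjusted p under 0.05, edgeR).

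Leaving out 1 library, where a lone library is assumed to vary like the other line's, gave 5 to 6 units, 0 to 1 members' starts, 0 to 551 start windows, 786 to 1878 windows with lower 5hmC and 0 to 4549 single sites; sites gave 0 without either H1ES library (3780 and 6699 at an unadjusted p under 0.05). The cause was not tested. The pooled difference, 22.0 points, was 21.2 to 22.8 without 1 library, 27.9 as a mean over sites, 17.5 over gene spans alone, and 26.4, 20.3 and 20.1 without APOB, APOH and APOA2. With sites counted once, the single-cell medians were 9.18% and 31.6%.

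Few tags limit single members most: 200 of the 312 sites had any tag in the libraries of 1000 cells, and 5 of the 10 starts had enough tags for the test.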

Other observations

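At the edges of the windows, some sites inside or beside neighbouring genes were unmethylated in both lines. Past the end of APOA5, on the side of ZPR1, 15 of 39 pooled H1ES tags and 26 of 36 HepG2 tags were unmethylated. A site there between the genes gave 4 of 4 and 2 of 3 tags in H1ES and 6 of 6 and 6 of 6 in HepG2. Past the end of APOM, a site inside C6orf47 gave 6 of 6 and 4 of 4 tags in H1ES and 4 of 4 and 8 of 8 in HepG2, while 4 sites of the same gene nearer to APOM were all or almost all methylated in H1ES and partly open in HepG2. These neighbours contribute to the unit values of the chromosome 11 cluster and of APOM.

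In HepG2, the 100 kb on both sides of the APOH window were at 14.5% of pooled tags unmethylated and the window at 39.9%, and those around APOB were at 41.6% and its window at 19.9%. In H1ES the APOB surroundings were at 0.806% and its window at 10.2%.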
